A study of Mus musculus with 28 samples.

Results

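Cathepsins are the proteases of the lysosome, and 10 of their genes were followed in hippocampal microglia of mice that differed in genotype and in gut bacteria: *Ctsa*, *Ctsb*, *Ctsc*, *Ctsd*, *Ctse*, *Ctsf*, *Ctsh*, *Ctsl*, *Ctss* and *Ctsz*. They were chosen by name, as members of this protease family, out of 48587 genes in the deposited count table, and although the rule uses no measured value, the family was picked with earlier results of these data known. The RNA-seq profiles came from 28 mice, 1 library per mouse, so each value below is that of 1 animal. Levels are given as CPM, that is reads of the gene per 1000000 reads assigned to genes, after TMM scaling of the libraries.

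The comparison had 6 groups, of which 3 were wild-type (WT) littermates and 3 were 5xFAD mice. 5xFAD mice are heterozygous males on a C57BL/6J background that carry mutant human APP and presenilin transgenes under the Thy-1 promoter, which is active in neurons. Mice of either genotype were kept under specific pathogen free conditions (SPF), raised germ-free (GF), or kept as SPF mice and given antibiotics for 8 weeks before the analysis (ABX), a mixture of vancomycin, cefoxitin, gentamicin and metronidazole in the drinking water. All were 16 weeks old according to the labels. There were 5 WT and 3 5xFAD mice under SPF, 4 WT and 5 5xFAD mice under GF, and 5 WT and 6 5xFAD mice under ABX conditions. GF mice came from a facility in Bern and the others from Freiburg, so germ-free housing and the source of the animals cannot be told apart. The labels' sample numbers follow 3 styles, the first used for SPF WT and ABX WT mice, the second for SPF 5xFAD mice and mouse FAD_ABX_1151, and the third for all GF and the other 5 ABX 5xFAD mice. What these styles stand for is not given in the sources used here, and of the 3 comparisons between genotypes, that in GF mice is the one within a single style. GF against SPF 5xFAD mice sets the third style against the second, and GF against SPF or ABX WT mice sets the third against the first. In these comparisons style and condition cannot be told apart. Mouse FAD_GF_201 is 5xFAD by its title and genotype label, whereas its description calls it WT, and it was used as 5xFAD.

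Cathepsins are made as inactive proenzymes, carried to endosomes and lysosomes largely by mannose-6-phosphate receptors, and activated there at acidic pH. They fall into aspartic, serine and cysteine proteases by the residue that cleaves the peptide bond, and microglia use them to degrade what they have phagocytosed and to process antigen. Cystatins hold the cysteine cathepsins in check, and the MiT/TFE transcription factors, TFEB among them, bind E-box sequences in front of many lysosomal genes.

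The promoter table used here, from RefSeq on build GRCm38.p6, covers 250 bases before to 50 bases after a start site and had entries for 7 of the 10 genes, all but *Ctsb*, *Ctse* and *Ctsh*. The E-box core CACGTG, which reads the same on either strand, was found in 4 of these 7 genes, *Ctsa*, *Ctsd*, *Ctsf* and *Ctsl*, against 7.15% of 32851 promoter windows in the table. The longer TCACGTG, searched on both strands and containing the former, was present in 2 of 7, *Ctsa* and *Ctsd*, against 3.77% of all windows. GAGGAAG, the core bound by the myeloid factor PU.1, was present in 2 of 7 (*Ctsc* and *Ctss*; 13.6% of all windows) and TATAAA in 1 of 7 (*Ctss*; 13.6% of all windows). The members are counted as genes and the background as windows, 32851 for 27025 genes, so these shares are not the same measure. A match is a description of the letters and not evidence of binding. Of the 4 genes that hold it, *Ctsa*, *Ctsd* and *Ctsl* rose in 5xFAD mice under every condition and *Ctsf* under ABX conditions, and of the 3 whose window lacks it, *Ctsz* rose under every condition, *Ctss* under GF and ABX conditions and *Ctsc* under none. The 6 E-box sites are shown because this was the motif found in most members, each as 30 bases on the strand of the gene with the E-box in capitals:
Ctsa, E-box beginning 12 bases before the start site: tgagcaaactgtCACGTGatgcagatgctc
Ctsa, E-box beginning 5 bases after the start site: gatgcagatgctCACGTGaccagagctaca
Ctsd, E-box beginning 245 bases before the start site: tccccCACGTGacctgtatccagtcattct
Ctsd, E-box beginning 98 bases before the start site: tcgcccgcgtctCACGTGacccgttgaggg
Ctsf, E-box beginning 79 bases before the start site: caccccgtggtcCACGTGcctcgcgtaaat
Ctsl, E-box beginning 236 bases before the start site: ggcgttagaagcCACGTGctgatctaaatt

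On GRCm38.p6 the *Ctsa* sites lie at chr2:164833749-164833778 and chr2:164833766-164833795 on the plus strand, so their windows share bases, and the *Ctsf* site lies at chr19:4855074-4855103, also on the plus strand. Those of *Ctsd* lie at chr7:142388048-142388077 and chr7:142387908-142387937 and that of *Ctsl* at chr13:64370739-64370768, all on the minus strand. The genes themselves are given by the count table's exons, all on GRCm38, as *Ctsa* at chr2:164832873-164841032, *Ctsz* at chr2:174427493-174439039, *Ctsc* at chr7:88278085-88310888 and *Ctsd* at chr7:142375911-142388038. *Ctse* lies at chr1:131638306-131675505, *Ctss* at chr3:95526786-95556403, *Ctsh* at chr9:90054152-90076089 and *Ctsl* at chr13:64363214-64370306. *Ctsb* lies at chr14:63122462-63145919 and *Ctsf* at chr19:4855129-4860912. The RefSeq start sites used for the E-boxes differ from the ends of these spans. Those of *Ctsa* (164833773), *Ctsd* (142387827) and *Ctsf* (4855165) lie inside the span of the gene, and that of *Ctsl* (64370520) lies outside it. Both *Ctsa* windows and the *Ctsd* window 98 bases before its start site thus fall within the gene's own span. Exons of 4 of these genes overlap those of a neighbour: *Ctsd* shares 808 of its 2351 exon bases with RP23-145I16.3 on the same strand (0 to 16 reads per mouse), *Ctsb* shares 767 of 4739 with *Fdft1*, *Ctsa* shares 324 of 4715 with *Neurl2* and 495 with *Pltp*, and *Ctsz* shares 10 of 1441 with *Nelfcd*. Whether the counting used strand is not given in the sources used here, so reads in shared bases cannot be assigned to 1 gene with certainty.

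The endogenous *App* gene, a check of the genotype labels that also depends on how reads of the human transgene map, passed the threshold between genotypes in ABX mice (0.35 ± 0.085 log2 units, adjusted p = 0.00532) and not in SPF (0.29 ± 0.10, 0.113) or GF mice (0.12 ± 0.094, 0.453). Libraries held 14441610 to 29977395 reads assigned to genes. The sorted population was CD11b+CD45low after exclusion of cells with lymphocyte, Ly6C or Ly6G markers. All 10 microglial markers, *P2ry12*, *Tmem119* and *Cx3cr1* among them, were detected in every group, with a summed level of 65024 to 72706 CPM in the 14 WT mice and 50728 to 62398 CPM in the 14 5xFAD mice (marker sums refer to library totals). Markers of other cells moved with the groups as well. The sum of 8 neutrophil markers was 61.1 to 263 CPM in the 3 SPF 5xFAD mice and 144 CPM in mouse FAD_ABX_1151, and 0 to 0.708 CPM in each of the other 24 mice. The sum of 8 markers of border-associated macrophages, of which *Mrc1* is one, was 3.48 to 8.15 CPM in SPF WT, 3.803 to 5.97 CPM in ABX WT, 10.7 to 44.1 CPM in GF WT, 16.1 to 29.5 CPM in SPF 5xFAD, 10.0 to 83.1 CPM in GF 5xFAD and 34.7 to 256 CPM in ABX 5xFAD mice, with *Cd163* and *Lyve1* at 0 in SPF WT and ABX WT and *Clec4n* at 0 in SPF WT. The sum of 5 monocyte markers was 6.76 to 8.57 CPM in SPF WT against 16.0 to 39.0 CPM in SPF 5xFAD mice, 3.75 to 9.32 against 14.4 to 52.0 CPM in ABX mice, and 3.72 to 16.9 against 6.02 to 24.9 CPM in GF mice, with *Ly6c2* at 0 in all WT and GF 5xFAD mice. In SPF mice *Chil3* alone of these 5 rose, from a mean of 0.00815 to 17.2 CPM, and *Ccr2* did not pass (adjusted p = 0.841). In ABX mice *Ccr2* and *Chil3* rose and *Vcan* fell. *Chil3* ran from 0 to 8.45 CPM over the ABX 5xFAD mice with a mean of 1.38 CPM, so that mean rested on the highest mouse. Of all tested genes, 4.57% were called between genotypes in SPF mice and 14.4% in ABX mice. Of 6 dendritic cell markers, 3 rose in ABX 5xFAD against WT mice (*Flt3*, *Clec9a* and *Cd209a*, beside 14.4% of all tested genes called), with a sum of 18.7 to 26.5 CPM in ABX WT and 25.9 to 74.5 CPM in ABX 5xFAD mice. *Cd209a* was also higher in GF 5xFAD mice than in GF WT (adjusted p = 9.87e-04) and SPF 5xFAD mice (0.0239), and *Itgae* was lower in both comparisons. Mouse FAD_GF_201 stood apart from the other 4 GF 5xFAD mice with a microglial sum of 61566 against 50728 to 52181 CPM and a border-associated macrophage sum of 83.1 against 10.0 to 54.7 CPM. The part of these markers in the results below was not tested.

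*Per kilobase of exon, cathepsin S led in WT microglia and cathepsin D in 5xFAD microglia.* Levels of different genes are compared here as CPM per kilobase of exon. Since the sorted cells were sequenced in bulk, fewer cells of a type and less RNA per cell cannot be told apart. In SPF WT mice the order ran from *Ctss* (5496 ± 408 CPM per kb, SD, n = 5) through *Ctsd* (4119 ± 204), *Ctsz* (1238 ± 71.8), *Ctsb* (722 ± 60.9), *Ctsl* (590 ± 46.4), *Ctsa* (358 ± 32.5), *Ctsf* (230.6 ± 18.0), *Ctsh* (197 ± 19.3) and *Ctsc* (176 ± 8.97) to *Ctse* (0.283 ± 0.184). Among these, *Ctsb* and *Ctsl*, *Ctsf* and *Ctsh*, and *Ctsh* and *Ctsc* were neighbours whose ranges over mice overlapped. In SPF 5xFAD mice *Ctsd* stood first at 8576 ± 695 CPM per kb (SD, n = 3), ahead of *Ctss* at 6400 ± 631 CPM per kb. *Ctsd* exceeded *Ctss* per kilobase in 14 of 14 5xFAD mice and in 0 of 14 WT mice. The ranges of both genes over mice nevertheless overlapped in GF WT and in ABX 5xFAD mice. The WT order of these genes rested on the exon lengths used, 2351 bases for *Ctsd* and 1358 bases for *Ctss*. Of the *Ctsd* bases, 808 are shared with a neighbour. In CPM without that division *Ctsd* lay above *Ctss* in every WT mouse as well, with means of 9683 and 7464 CPM in SPF WT mice. The order of *Ctsz*, *Ctsb*, *Ctsl* and *Ctsa* below them was the same by mean in all 6 groups. The 9 genes other than *Ctse* had group means of 167 CPM per kb or more, whereas *Ctse* was at or below 3.09 CPM in every WT mouse.

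**Figure D1:**
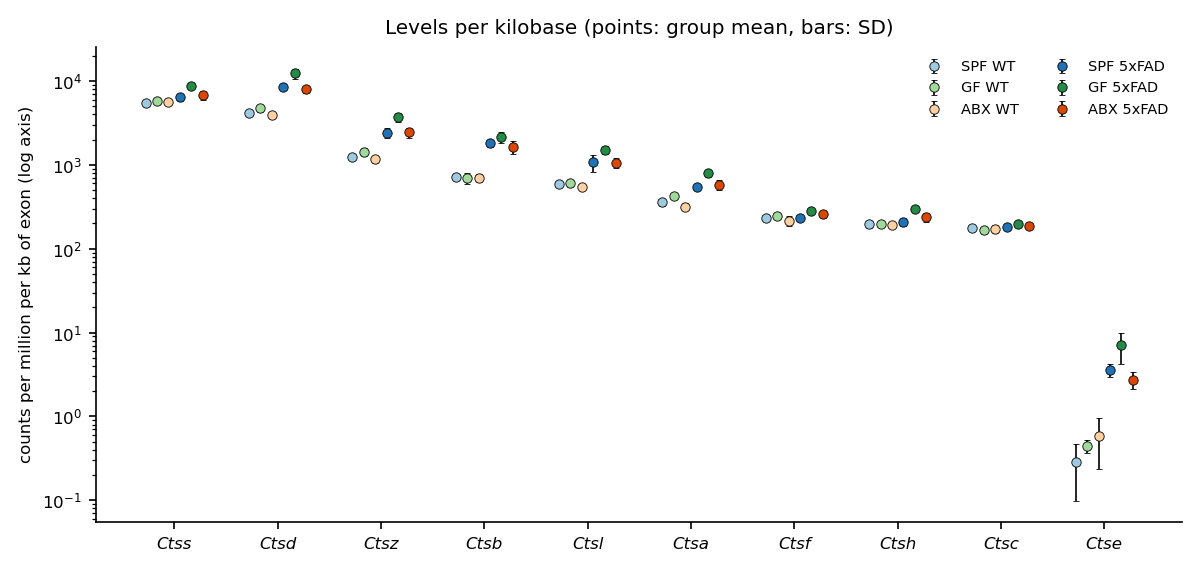
Level of each of the 10 cathepsin genes in CPM per kilobase of exon on a log axis, with points for the means of the 6 groups and bars for the SD over mice. *Ctss* is highest in the WT groups and *Ctsd* in the 5xFAD groups, and *Ctse* lies far below the other 9 genes.

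Together the 10 genes took 2.65 to 3.34% of all reads assigned to genes in the 14 WT mice and 4.19 to 6.61% in the 14 5xFAD mice. The share was 4.79 ± 0.384% (SD, n = 3) under SPF, 6.17 ± 0.601% (n = 5) under GF and 4.63 ± 0.358% (n = 6) under ABX conditions in 5xFAD mice. It was 2.84 ± 0.133% (n = 5), 3.05 ± 0.240% (n = 4) and 2.80 ± 0.0868% (n = 5) in the corresponding WT groups. Within the cathepsin reads, the aspartic proteases made up 32.8 to 38.1% in WT and 39.1 to 45.1% in 5xFAD mice, while the part of *Ctss* was 25.3 to 30.9% in WT and 16.1 to 22.01% in 5xFAD mice. These shares are descriptions and carry no test.

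**Figure D2:**
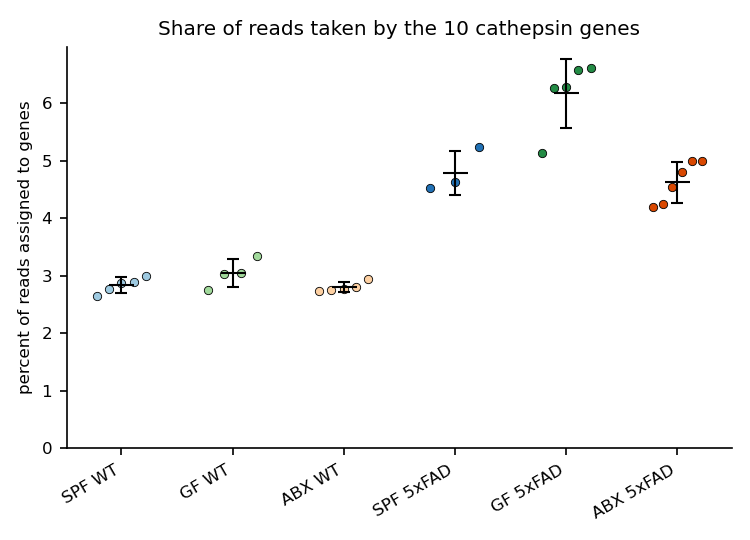
Percent of reads assigned to genes that came from the 10 cathepsin genes, with a point for each mouse and the mean and SD of each group in black. The WT mice lie between 2.65 and 3.34%, below all 5xFAD mice, and GF 5xFAD mice have the highest mean at 6.17%.

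*Aspartic cathepsins.* *Ctsd* encodes the main aspartic protease of lysosomes. In SPF mice, *Ctsd* stood at 9452, 10382, 9294, 9977 and 9312 CPM in the WT and at 22022, 18958 and 19508 CPM in the 5xFAD mice. Under GF conditions *Ctsd* was at 10114, 11143, 12560.1 and 10839.5 CPM in WT and at 32000.4, 29788, 28648, 32466 and 22562 CPM in 5xFAD mice. ABX WT mice had 9512, 9402, 8525, 9463 and 9520.2 CPM, and the 6 ABX 5xFAD mice had a lowest of 17076, a median of 18657 and a highest of 21704 CPM. Every 5xFAD mouse lay above every WT mouse, and every GF 5xFAD mouse lay above every SPF and ABX 5xFAD mouse. The lowest GF 5xFAD value, 22562 CPM, was that of mouse FAD_GF_201. Between genotypes the log2 fold change was 1.06 ± 0.089 (standard error) under SPF, 1.38 ± 0.086 under GF and 1.03 ± 0.076 under ABX conditions, with edgeR quasi-likelihood adjusted p-values of 7.83e-10, 1.65e-12 and 5.62e-11 (2.08-, 2.61- and 2.04-fold).

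*Ctse*, an aspartic protease of endosomes in immune cells, was the member with the largest fold change and the lowest level. In SPF mice, *Ctse* stood at 0.448, 0.998, 0.559, 0.603 and 1.87 CPM in WT (10 to 40 reads per mouse) and at 10.3, 13.6 and 10.1 CPM in 5xFAD mice (188 to 277 reads). In GF mice, *Ctse* was at 1.21, 1.61, 1.66 and 1.16 CPM in WT and at 15.5, 24.4, 29.9, 31.5 and 10.8 CPM in 5xFAD mice. ABX WT mice had 3.09, 0.264, 2.79, 1.85 and 1.38 CPM, where mouse WT_ABX_910 gave 4 reads, and ABX 5xFAD mice had a lowest of 6.51, a median of 8.17 and a highest of 12 CPM. No 5xFAD value overlapped a WT value, but the spread was wide, from 10.8 CPM in mouse FAD_GF_201 to 31.5 CPM in mouse FAD_GF_185 among the GF 5xFAD mice. *Ctse* rose by 3.65 ± 0.44 log2 units under SPF (adjusted p = 8.26e-07), 3.99 ± 0.45 under GF (adjusted p = 1.41e-07) and 2.21 ± 0.38 under ABX conditions (adjusted p = 1.07e-04), or 12.6-, 15.9- and 4.63-fold. Reads of *Ctse* passed the low-count cutoff of 0.513 CPM in 12 of 14 WT mice and in all 14 5xFAD mice.

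*The serine cathepsin.* *Ctsa* encodes a serine carboxypeptidase that also protects beta-galactosidase and neuraminidase in a lysosomal complex. In SPF mice, *Ctsa* stood at 1556, 1910.3, 1736, 1711 and 1533 CPM in WT and at 2746, 2444 and 2455 CPM in 5xFAD mice. In GF mice, *Ctsa* was at 1843, 2012, 2114 and 1954 CPM in WT and at 3973, 3942, 3905, 3780.3 and 3129.5 CPM in 5xFAD mice. The ABX WT values were 1542, 1442, 1279, 1572 and 1662 CPM, and ABX 5xFAD mice had a lowest of 2222, a median of 2702 and a highest of 3187 CPM. The genotypes did not overlap, and GF mice had the highest mean in either genotype, with all 4 GF WT mice above all 5 ABX WT mice. Between genotypes the log2 fold change was 0.59 ± 0.10 under SPF, 0.92 ± 0.096 under GF and 0.87 ± 0.086 under ABX conditions (adjusted p = 2.03e-04, 3.17e-08 and 1.35e-08).

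*Cysteine cathepsins that rose under every condition.* *Ctsb* encodes a lysosomal endopeptidase that also removes dipeptides from the carboxy end. In SPF mice, *Ctsb* stood at 3437, 3848, 3245, 3501 and 3084 CPM in WT and at 9609, 8053 and 8303 CPM in 5xFAD mice. In GF mice, *Ctsb* was at 3121, 3027, 4029 and 3065 CPM in WT and at 11663, 10443, 9470.5, 11438 and 7826 CPM in 5xFAD mice. With ABX the WT mice had 3736, 3449, 3403, 3072 and 2862 CPM, and ABX 5xFAD mice had a lowest of 6668, a median of 7381 and a highest of 10359 CPM. The lowest 5xFAD mouse, at 6668 CPM, lay above the highest WT mouse, at 4029 CPM, and the 3 5xFAD groups overlapped each other. *Ctsb* rose 2.53-fold under SPF, 3.07-fold under GF and 2.33-fold under ABX conditions, with log2 fold changes of 1.34 ± 0.12, 1.62 ± 0.12 and 1.22 ± 0.11 (adjusted p = 6.16e-09, 5.12e-11 and 1.69e-09).

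*Ctsl* encodes an endopeptidase. In SPF mice, *Ctsl* stood at 1289, 1189.8, 1093, 1187 and 1056 CPM in WT and at 2680.5, 1840.1 and 1835 CPM in 5xFAD mice. In GF mice, *Ctsl* was at 1015, 1209.9, 1267 and 1237 CPM in WT and at 3115, 3085, 3206, 3076 and 2431 CPM in 5xFAD mice. ABX WT mice had 1109.6, 1006, 1071, 1031 and 1189 CPM, and ABX 5xFAD mice had a lowest of 1633, a median of 2069 and a highest of 2389 CPM. Mouse FAD_SPF_1144 was high at 2680 CPM, above the lowest GF 5xFAD mouse, while no WT value reached any 5xFAD value. *Ctsl* rose by 0.87 ± 0.12 log2 units under SPF, 1.34 ± 0.11 under GF and 0.94 ± 0.10 under ABX conditions (adjusted p = 5.46e-06, 4.30e-10 and 4.55e-08).

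*Ctsz* encodes a carboxypeptidase, also called cathepsin X. In SPF mice, *Ctsz* stood at 1806, 1934, 1659, 1803 and 1720.5 CPM in WT and at 4019, 3273 and 3194 CPM in 5xFAD mice. In GF mice, *Ctsz* was at 1748, 2093, 2243 and 2154 CPM in WT and at 5746, 5616, 5518, 5698 and 4107 CPM in 5xFAD mice. ABX WT mice had 1765, 1608, 1468, 1728 and 1787 CPM, and ABX 5xFAD mice had a lowest of 2895, a median of 3494 and a highest of 4289 CPM. Again the genotypes were apart, and the GF 5xFAD mice other than mouse FAD_GF_201 formed the 4 highest values of all 28 mice. *Ctsz* rose 1.96-fold under SPF, 2.59-fold under GF and 2.1-fold under ABX conditions, with log2 fold changes of 0.97 ± 0.11, 1.37 ± 0.10 and 1.07 ± 0.094 (adjusted p = 2.18e-07, 6.37e-11 and 1.24e-09).

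*Cysteine cathepsins with smaller or no detected changes.* *Ctss* encodes a protease that stays active at neutral pH and trims the invariant chain of MHC class II molecules. In SPF mice, *Ctss* stood at 8140.4, 7818, 6895, 7561 and 6907 CPM in WT and at 9672, 8095 and 8306 CPM in 5xFAD mice. In GF mice, *Ctss* was at 6955, 8140.5, 8345 and 8319 CPM in WT and at 11439.8, 11866, 12905, 12522 and 10811 CPM in 5xFAD mice. With ABX the WT values of *Ctss* were 8133, 7476, 8029, 7096 and 7577 CPM, and ABX 5xFAD mice had a lowest of 7469.6, a median of 9103 and a highest of 10728 CPM. The genotypes overlapped in SPF and ABX mice and were apart in GF mice. *Ctss* rose by 0.58 ± 0.083 log2 units in GF (adjusted p = 7.22e-06) and by 0.28 ± 0.075 in ABX mice (adjusted p = 0.0109), whereas in SPF mice the log2 fold change was 0.22 ± 0.089 (adjusted p = 0.212). The SPF value passed the threshold with gene length offsets (adjusted p = 0.0138) and with limma's voomWithQualityWeights (0.0429), which called 5.05% and 14.1% of all tested genes, and the ABX value missed it with library size alone as scaling (0.0534).

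*Ctsh* encodes an aminopeptidase. In SPF mice, *Ctsh* stood at 903, 969, 836, 957 and 762 CPM in WT and at 1071, 887 and 886 CPM in 5xFAD mice. In GF mice, *Ctsh* was at 853, 894, 909.99 and 861 CPM in WT and at 1368, 1327, 1529, 1326 and 1172 CPM in 5xFAD mice. The ABX WT values were 905, 875, 820.4, 905 and 863 CPM, and ABX 5xFAD mice had a lowest of 858, a median of 1095 and a highest of 1241 CPM. All 5 GF 5xFAD mice lay above all 14 WT mice, but in SPF mice 2 of the 3 5xFAD values lay inside the WT range. The log2 fold change was 0.61 ± 0.091 in GF (adjusted p = 1.39e-05), 0.30 ± 0.082 in ABX (adjusted p = 0.0119) and 0.098 ± 0.098 in SPF mice (adjusted p = 0.782).

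*Ctsc* encodes dipeptidyl peptidase I, which activates the serine proteases of leukocyte granules, and it was the member with the highest p in the F test over the 6 groups. Its level ranged from 965 to 1099 CPM in SPF WT, 832 to 1048 in GF WT, 834 to 1153 in ABX WT, 1004 to 1143 in SPF 5xFAD, 994 to 1195 in GF 5xFAD and 1030.1 to 1222 in ABX 5xFAD mice. All 6 ranges overlapped, and that F test gave an adjusted p of 0.198, the only member above 0.05. Between genotypes the log2 fold change was 0.045 ± 0.089 under SPF, 0.22 ± 0.082 under GF and 0.11 ± 0.074 under ABX conditions (adjusted p = 0.923, 0.0634 and 0.371). In GF mice it passed the threshold under 5 other settings (DESeq2, voomWithQualityWeights, a stricter count filter, and offsets for gene length or GC content, adjusted p = 0.00558 to 0.0455, settings that in this order called 18.1%, 16.0%, 21.3%, 14.8% and 16.4% of the genes they tested) and without mouse WT_ABX_923, mouse FAD_GF_182 or mouse FAD_ABX_1455 (0.0289 to 0.0464). With GC content offsets it passed in ABX mice as well (log2 fold change 0.32, adjusted p = 0.0027, with 12.0% of tested genes called).

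*Ctsf* encodes a cysteine protease with an unusually long propeptide. Its level was 404 to 499 CPM in SPF WT, 472 to 507 in GF WT, 352 to 482 in ABX WT, 439.7 to 502 in SPF 5xFAD, 525 to 565 in GF 5xFAD and 437 to 579 in ABX 5xFAD mice. The GF ranges were apart and those of SPF and ABX mice overlapped. The log2 fold change was 0.25 ± 0.079 in ABX (adjusted p = 0.0352), 0.16 ± 0.088 in GF (adjusted p = 0.223) and 0.023 ± 0.095 in SPF mice (adjusted p = 0.965). The ABX call was lost when any 1 of WT_ABX_910, WT_ABX_911, FAD_ABX_1455 and FAD_ABX_1460 was left out (adjusted p = 0.0729 to 0.124), and with GC content offsets (0.473), library size alone (0.113), no low-count filter (0.0696) or only the compared groups (0.139).

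**Figure D3:**
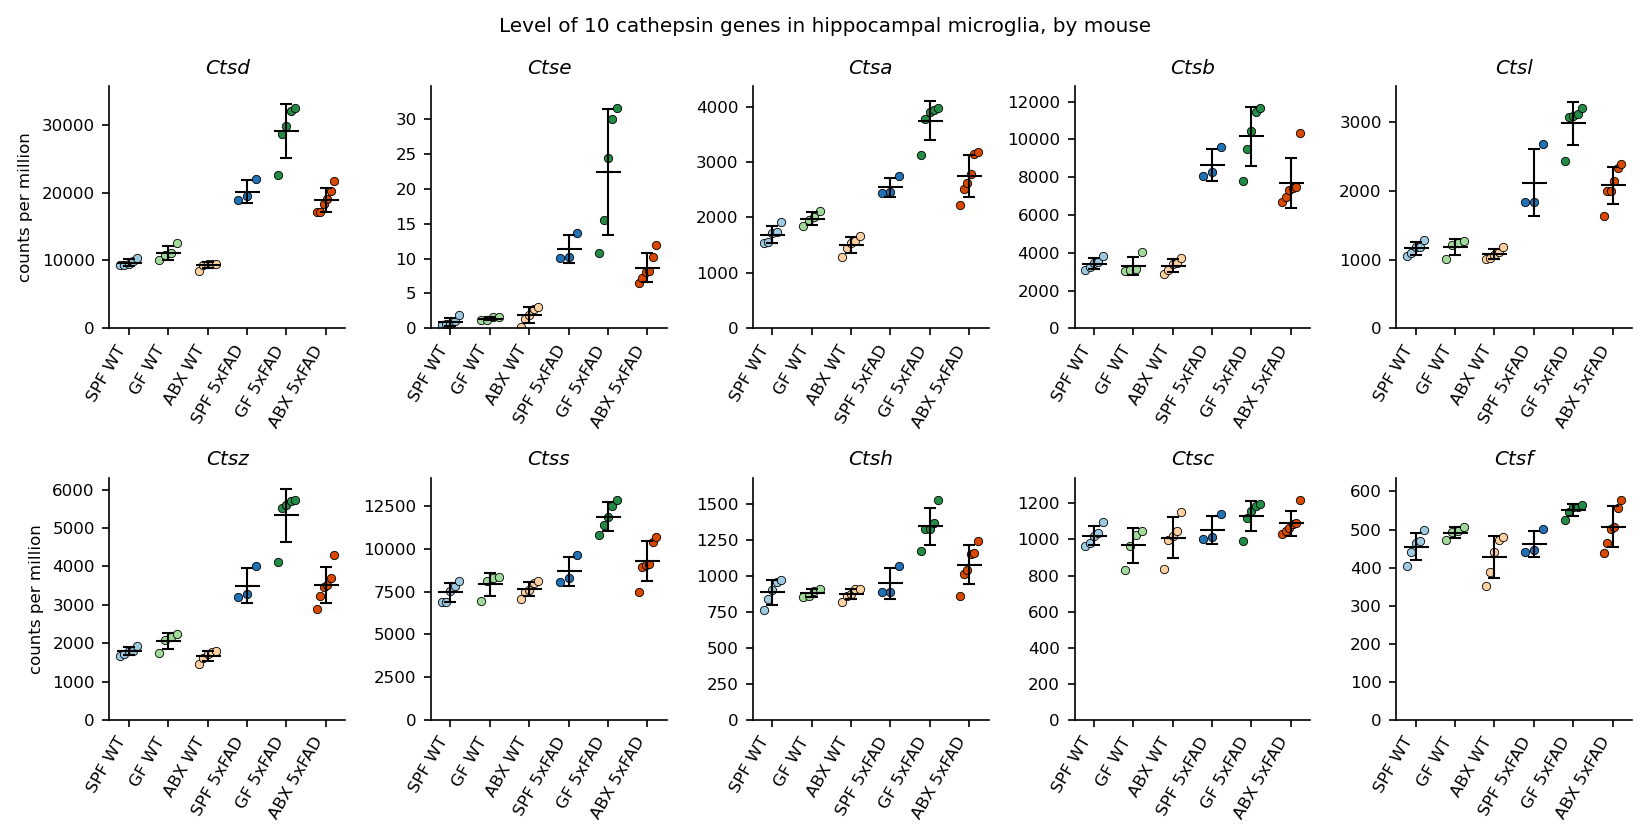
Level of each cathepsin gene in CPM on linear axes that begin at 0, with a point for each mouse and the mean and SD of each of the 6 groups in black. For *Ctsd*, *Ctse*, *Ctsa*, *Ctsb*, *Ctsl* and *Ctsz* all 14 5xFAD mice lie above all 14 WT mice, while *Ctsc* and *Ctsf* differ little between groups.

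*5xFAD against WT.* Among SPF mice 6 of the 10 cathepsins rose (*Ctsa*, *Ctsb*, *Ctsd*, *Ctse*, *Ctsl* and *Ctsz*) and none fell, where 4.57% of the 15298 tested genes passed the threshold and 3.73% rose. Among GF mice 8 of 10 rose, those of SPF mice with *Ctsh* and *Ctss*, against 15.6% of all genes called and 9.43% that rose. Among ABX mice 9 of 10 rose, these 8 with *Ctsf*, against 14.4% called and 9.45% that rose. The median log2 fold change of the 10 genes was 0.73 under SPF, 1.13 under GF and 0.91 under ABX conditions, beside medians of -0.027, -0.025 and -0.013 over all tested genes. The 6 members of the SPF comparison rose in all 3 conditions, as did 2.76% of tested genes, and for these same 6 every 5xFAD mouse lay above every WT mouse, which held for 1.71% of tested genes. Over all 23 calls between genotypes, whether the mice overlapped or not, the exact two-sided permutation test of the single gene on log2 CPM was under 0.05 for 21, and it gave p = 0.0563 for *Ctss* and p = 0.0909 for *Ctsf* in ABX mice. Without mice FAD_ABX_1151 and FAD_ABX_1482 of the ABX 5xFAD group, the former being the mouse with neutrophil markers, 6, 8 and 9 members rose again, beside 5.43%, 17.9% and 15.1% of tested genes called. Without mouse FAD_GF_201 the counts were 6, 8 and 9 as well, beside 4.9%, 18.1% and 14.8%.

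**Figure D4:**
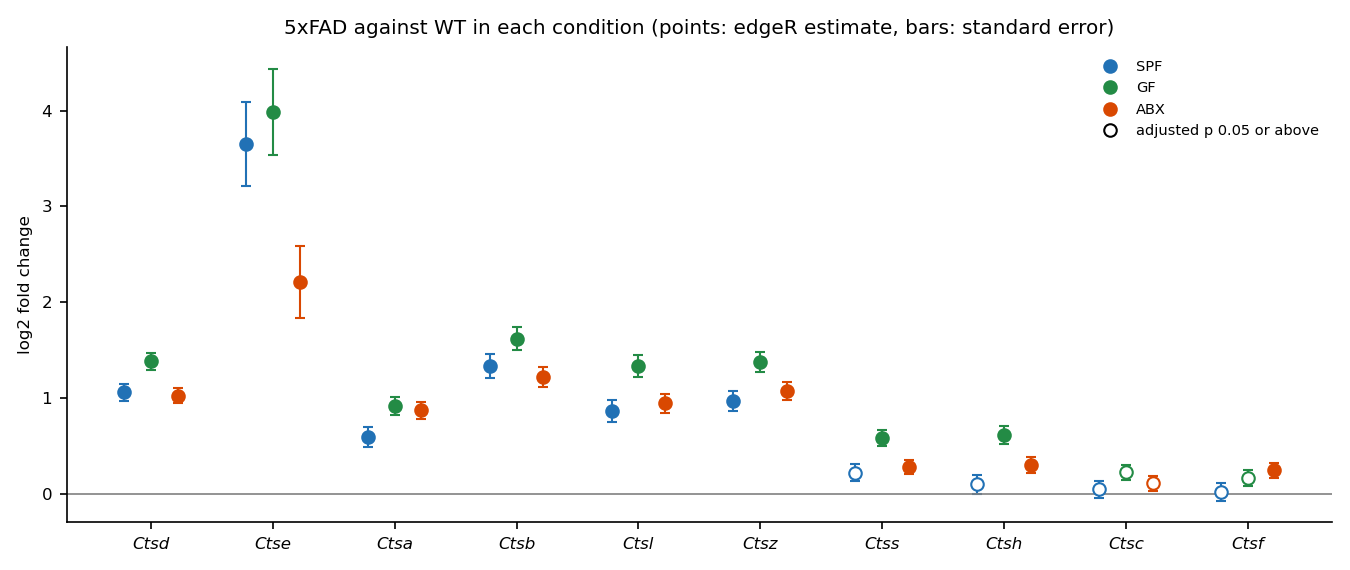
Log2 fold change of 5xFAD against WT for each cathepsin gene in SPF, GF and ABX mice, with the standard error of the edgeR fit and open symbols for an adjusted p of 0.05 or above. Every estimate is above 0, those of *Ctse* are the highest, and those of *Ctsc* and *Ctsf* reach at most 0.25.

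*GF, SPF and ABX conditions among 5xFAD mice.* In GF 5xFAD mice 6 of 10 cathepsins were higher than in SPF 5xFAD mice, against 12.8% of tested genes called in this comparison (6.97% higher). These were *Ctsz* (log2 fold change 0.61 ± 0.11, adjusted p = 0.00166), *Ctsa* (0.56 ± 0.10, 0.00171), *Ctsd* (0.53 ± 0.092, 0.00131), *Ctsh* (0.50 ± 0.10, 0.00272), *Ctsl* (0.49 ± 0.12, 0.00804) and *Ctss* (0.45 ± 0.091, 0.0028). All 5 GF mice lay above all 3 SPF mice for *Ctsa*, *Ctsd*, *Ctsf*, *Ctsh*, *Ctss* and *Ctsz*, a separation found for 10.4% of tested genes. The exact two-sided permutation test was under 0.05 for 5 of the 6 called genes and gave p = 0.0536 for *Ctsd*. The call of *Ctsl* was lost without mouse FAD_SPF_1146 (adjusted p = 0.0911) or FAD_SPF_1148 (0.0992), which left 2 SPF 5xFAD mice with mouse FAD_SPF_1144 among them. *Ctse* (0.98 ± 0.42, adjusted p = 0.125), *Ctsb* (0.23 ± 0.13, 0.253), *Ctsf* (0.25 ± 0.096, 0.0806) and *Ctsc* (0.10 ± 0.089, 0.507) did not pass, although voomWithQualityWeights called *Ctse* (0.00664), *Ctsb* (0.0436) and *Ctsf* (0.00989), DESeq2 called *Ctsf* (0.0442) and GC content offsets gave *Ctsc* 0.37 (0.00817). In this comparison voomWithQualityWeights called 25.3%, DESeq2 16.5% and the fit with GC content offsets 9.85% of all tested genes. Without mouse FAD_GF_201 6 members passed, beside 14.3% of tested genes. All 3 SPF 5xFAD libraries carried neutrophil markers, with a sum of 61.1 to 263 CPM against at most 0.0495 CPM in GF 5xFAD mice, and the part of this difference in the cathepsin levels was not tested. GF and SPF 5xFAD mice also differ wholly in numbering style, which cannot be told apart from condition here.

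In GF against ABX 5xFAD mice 8 of 10 were higher, all but *Ctsc* and *Ctsf*, against 10.6% of tested genes called (6.07% higher). The log2 fold change was 1.36 ± 0.34 for *Ctse* (adjusted p = 0.0106), 0.62 ± 0.075 for *Ctsd* (1.90e-05), 0.60 ± 0.091 for *Ctsz* (2.68e-04), 0.52 ± 0.098 for *Ctsl* (0.00158) and 0.45 ± 0.084 for *Ctsa* (0.00158). It was 0.40 ± 0.11 for *Ctsb* (0.0146), 0.36 ± 0.074 for *Ctss* (0.00336) and 0.32 ± 0.081 for *Ctsh* (0.0118). GF and ABX mice did not overlap for *Ctsd*, *Ctsl* and *Ctss*, which held for 1.79% of tested genes. Fitted with only these 2 groups, where 1.89% of tested genes passed, 5 members passed and *Ctsb* (adjusted p = 0.101), *Ctsh* (0.115) and *Ctss* (0.0609) did not, and *Ctsb* also missed the threshold without mouse FAD_GF_181 (0.0543). Without mouse FAD_ABX_1151, which leaves GF and ABX mice that share 1 numbering style, 8 members passed as in the full set, beside 6.39% of tested genes, and without mouse FAD_GF_201 8 passed beside 13.0%. Of the 8 border-associated macrophage markers, *Mrc1* was lower in GF than in ABX 5xFAD mice and 7 did not pass, with sums of 10.0 to 83.1 against 34.7 to 256 CPM that overlapped, and their part was not tested.

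Between ABX and SPF 5xFAD mice 0 of 10 cathepsins passed the threshold with edgeR, as did 0.0% of tested genes, while 1085 genes (7.09%) had an unadjusted p under 0.05, none of them a member. The estimates ran from -0.38 ± 0.39 for *Ctse* and -0.17 ± 0.12 for *Ctsb* to 0.13 ± 0.093 for *Ctsf* and 0.18 ± 0.096 for *Ctsh* on the log2 scale, 6 of them above 0, and the group ranges overlapped for all 10 genes. The lowest unadjusted p among the members was 0.0658, for *Ctsh*. DESeq2 and voomWithQualityWeights called 0 members as well, with 0.0523% and 0.876% of all tested genes called. The 3 comparisons within 5xFAD mice share mice, so their results are not independent of one another.

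**Figure D5:**
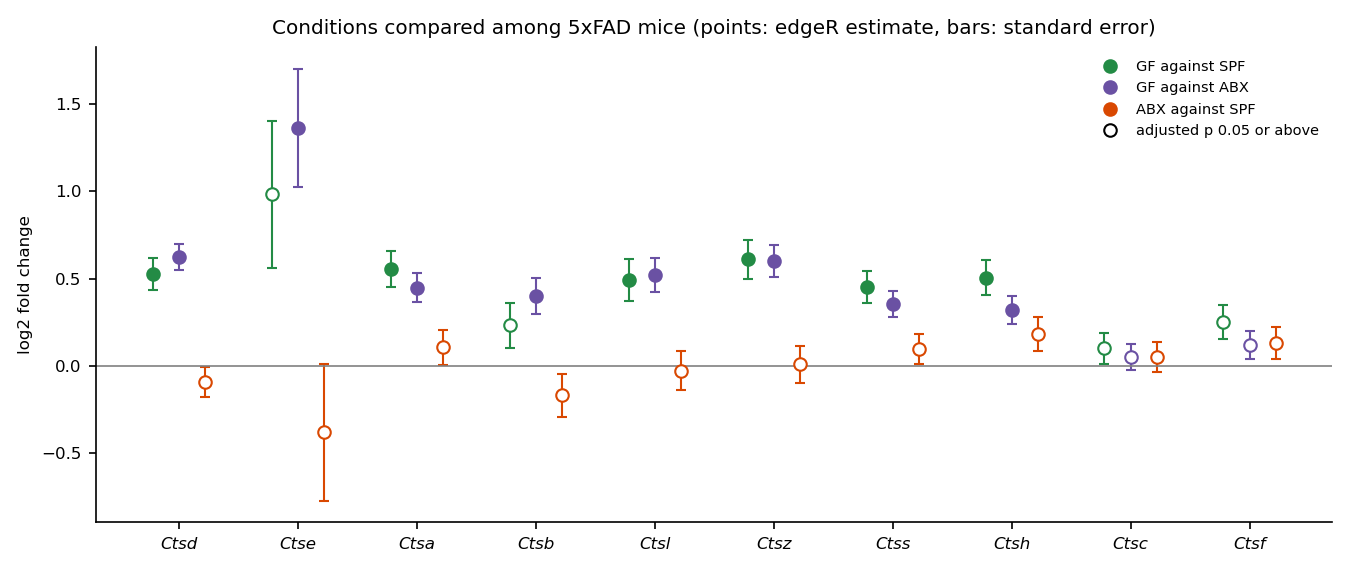
Log2 fold change of each cathepsin gene between conditions among 5xFAD mice, with the standard error of the edgeR fit and open symbols for an adjusted p of 0.05 or above. All estimates of GF against SPF and of GF against ABX lie above 0, while those of ABX against SPF lie on either side of 0 and none passes.

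*GF, SPF and ABX conditions among WT mice.* Between GF and SPF WT mice 0 of 10 cathepsins passed with edgeR, against 1.62% of tested genes, and 2 members, *Ctsa* and *Ctsd*, had an unadjusted p under 0.05, as had 16.6% of tested genes. *Ctsa* differed by 0.23 ± 0.094 (adjusted p = 0.199) and *Ctsd* by 0.21 ± 0.083 (0.193), and both were called by voomWithQualityWeights (0.0462 and 0.0491) and when only these 2 groups were fitted (0.0438 and 0.04), settings that called 10.7% and 9.6% of all genes they tested. DESeq2 called 0 members and 4.71% of all tested genes. Between GF and ABX WT mice 2 of 10 were higher in GF mice, *Ctsa* (0.40 ± 0.094, adjusted p = 0.00999) and *Ctsd* (0.27 ± 0.083, 0.0486), against 6.88% of tested genes called. Both had all 4 GF mice above all 5 ABX mice, as had 6.17% of tested genes. The call of *Ctsd* lay at the threshold and was lost in 21 of 28 fits that left out 1 mouse and with RLE factors, library size alone, no low-count filter or at least 10 counts in every library (adjusted p = 0.0505 to 0.0853), and with GC content offsets both were lost (adjusted p of *Ctsa* = 0.115). *Ctsz* differed by 0.30 ± 0.10 (adjusted p = 0.0683), and over its alternatives the adjusted p ran from 0.0121 with voomWithQualityWeights (13.2% of tested genes called) to 0.864 with GC content offsets. Between ABX and SPF WT mice 0 members and 0.0% of tested genes passed with edgeR, with 687 genes (4.49%) and *Ctse* alone among the members at an unadjusted p under 0.05 (1.06 ± 0.41), and DESeq2 and voomWithQualityWeights called 0 members too, beside 0.0131% and 0.0% of all tested genes. GF WT mice carried more border-associated macrophage markers than SPF WT and ABX WT mice (10.7 to 44.1 against at most 8.15 CPM), a part that was not tested. Numbering style also differs wholly between GF WT mice and the other WT mice.

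*Did the effect of 5xFAD depend on the condition?* The interaction asks whether the difference between genotypes was larger in one condition than in another. For GF minus SPF mice all 10 estimates were above 0, from 0.14 ± 0.13 for *Ctsf* and 0.18 ± 0.12 for *Ctsc* to 0.47 ± 0.16 for *Ctsl* and 0.51 ± 0.13 for *Ctsh*, with a median of 0.33 beside 0.011 over all tested genes. With edgeR 0 of 10 passed the threshold (lowest adjusted p = 0.316, *Ctsh*), as did 0.0% of tested genes, and 1304 genes (8.52%) had an unadjusted p under 0.05, among them *Ctsa*, *Ctsd*, *Ctsh*, *Ctsl*, *Ctss* and *Ctsz*. DESeq2 called 0 members and 0.163% of all tested genes, whereas voomWithQualityWeights called 4 (0.758% of all tested genes), *Ctsh* (0.57, adjusted p = 0.0213), *Ctsl* (0.58, 0.027), *Ctss* (0.39, 0.0434) and *Ctsz* (0.46, 0.0468). That the 5xFAD effect passed in GF mice and not in SPF mice for *Ctsh* and *Ctss* is therefore not shown to be a difference between conditions by the edgeR test. For GF minus ABX mice 9 of 10 estimates were above 0 and 0 passed with edgeR, against 1.76% of tested genes called. At an unadjusted p under 0.05 were *Ctsb*, *Ctsd*, *Ctse*, *Ctsh*, *Ctsl*, *Ctss* and *Ctsz*, as were 15.9% of tested genes. *Ctse* came closest with 1.77 ± 0.55 (adjusted p = 0.0906), followed by *Ctsd* with 0.36 ± 0.11 (0.0961). *Ctse* passed with DESeq2 (0.03, 3.77% of tested genes called) and without mouse WT_ABX_910, its lowest library (0.0366, 0.788% called), *Ctsd* passed with GC content offsets (0.0188, 1.46% called), and both passed without mouse FAD_GF_201 (0.0435 and 0.0111, 3.24% called). For ABX minus SPF mice 0 members and 0.0% of tested genes passed, with 1032 genes (6.75%) at an unadjusted p under 0.05, *Ctsa* (0.28 ± 0.13) and *Ctse* (-1.44 ± 0.57) among them.

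*Spread between mice and genes with a like pattern.* The coefficient of variation within a group, taken as the median over the 6 groups, was 7.33% for *Ctsc*, 7.57% for *Ctsf*, 7.89% for *Ctss*, 8.64% for *Ctsd*, 9.23% for *Ctsa*, 9.65% for *Ctsh*, 10.0% for *Ctsl*, 11.8% for *Ctsz* and 12.4% for *Ctsb*. It was 31.7% for *Ctse*. Across the means of the 6 groups, *Ctsd* and *Ctsz* were each other's most alike gene among 9051 genes, with a root mean square difference of 0.035 on the log2 scale over the 6 groups. The second was *C530043K16Rik* for *Ctsd* (0.037) and *Npc2* for *Ctsz* (0.05), which encodes a cholesterol carrier of the lysosome. The nearest to *Ctsa* were *Uap1l1* (0.021) and *Plbd2* (0.036), the latter a lysosomal phospholipase-like protein. Those of *Ctsb* were *Cd274* and *Rftn1* (0.11 each), and those of *Ctsl* *Arhgap24* (0.035) and *Ephx1* (0.041). *Ctsh* had *Mpp1* (0.021) and *Ccdc91* (0.03), and *Ctss* had *Ccdc91* (0.026) and *Wdr83os* (0.029). For *Ctsc* they were *Sepp1* (0.027) and *Gmppa* (0.028), and for *Ctsf* *Slc35a2* (0.019) and *Wdr1* (0.023). *Ctse* was below the level at which likeness was looked for.

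*Other cathepsins, inhibitors and the lysosomal route.* Of 13 further cathepsin genes, 10 had no read in any of the 28 mice, *Ctsg* of neutrophil granules among them, *Ctsk* had at most 10 reads, and *Ctso* and *Ctsw* passed the filter. *Ctsw* rose in GF 5xFAD against GF WT mice (1.93 ± 0.49, adjusted p = 0.00632) at a mean of 4.58 CPM in GF 5xFAD mice, and its log2 fold change was 0.77 ± 0.50 in SPF (0.572) and 0.12 ± 0.42 in ABX mice (0.894). *Ctso* passed in none of the comparisons of genotypes or of conditions among 5xFAD mice. Of 6 granule proteases that dipeptidyl peptidase I activates, 0 passed the filter.

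Of 10 genes of cathepsin inhibitors and legumain, 4 were expressed above the filter. *Cst7*, encoding cystatin F, an inhibitor that acts inside endosomes and lysosomes, went from means of 7.60, 9.67 and 8.18 CPM in SPF, GF and ABX WT mice to 698, 1326 and 666 CPM in 5xFAD mice. Its log2 fold change was 6.52 ± 0.26, 7.10 ± 0.29 and 6.36 ± 0.25 (adjusted p = 8.23e-17, 1.11e-16 and 5.18e-17), larger than that of any of the 10 cathepsins. *Cstb*, the cytosolic stefin B, rose in GF (1.24 ± 0.17, adjusted p = 4.36e-06) and ABX mice (0.56 ± 0.15, 0.0113), and its log2 fold change in SPF mice was 0.55 ± 0.18 (0.0801). *Lgmn*, the asparagine endopeptidase that processes cathepsins to their mature forms, fell in SPF 5xFAD against SPF WT mice (-0.62 ± 0.11, adjusted p = 3.97e-04), with -0.11 ± 0.10 in GF (0.511) and 0.038 ± 0.09 in ABX mice (0.833). All 4, with the secreted *Cst3*, were higher in GF than in SPF 5xFAD mice, where 12.8% of all tested genes were called, from 0.41 ± 0.12 for *Cst3* (adjusted p = 0.0215) and 0.50 ± 0.11 for *Lgmn* (0.00439) to 0.88 ± 0.19 for *Cstb* (0.00348) and 0.93 ± 0.23 for *Cst7* (0.0101).

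Of 9 genes for sorting and maturation, 3 rose in SPF, 5 in GF and 5 in ABX 5xFAD against WT mice, and 1 fell in GF mice, beside 4.57%, 15.6% and 14.4% of all tested genes called in these comparisons. *Grn*, encoding progranulin, rose under each condition (0.78 ± 0.084, 0.87 ± 0.08 and 0.83 ± 0.072), as did *Gnptab* (1.16 ± 0.23, 0.90 ± 0.22 and 0.89 ± 0.20) and *Gnptg* (0.45 ± 0.12, 0.85 ± 0.12 and 0.52 ± 0.10), the subunits of the enzyme that sets the mannose-6-phosphate tag. Among 5xFAD mice *Grn* and *Gnptg* were higher and *Igf2r*, a receptor for that tag at or below 86 reads, lower in GF than in SPF mice. *Scarb2*, a lysosomal membrane protein, was the 1 gene of the list with an interaction (1.76% of all tested genes called), its 5xFAD effect being larger in GF than in ABX mice by 0.49 ± 0.12 (adjusted p = 0.0419). Of the 3 partners of cathepsin A, *Glb1* and *Galns* rose in SPF mice (1.01 ± 0.13 and 0.91 ± 0.15) and all 3, with *Neu1*, in GF and ABX mice. *Galns* was higher in GF than in SPF 5xFAD mice (0.56 ± 0.15, adjusted p = 0.0165).

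Of the 4 MiT/TFE factors 0 rose in any comparison of genotypes, and *Tfe3* fell in GF 5xFAD against GF WT mice (-0.27 ± 0.091, adjusted p = 0.0434), with -0.30 ± 0.10 in SPF (0.0943) and 0.096 ± 0.082 in ABX mice (0.497). *Tfeb* was at means of 47.7 to 60.3 CPM in the 6 groups, with log2 fold changes of -0.16 ± 0.15, -0.071 ± 0.14 and 0.13 ± 0.13 between genotypes, none past the threshold. Of 6 genes of MHC class II presentation, where cathepsin S acts, 4 rose in SPF, 2 in GF and 5 in ABX 5xFAD against WT mice, beside the same 4.57%, 15.6% and 14.4% of all tested genes. *Cd74*, the invariant chain, rose by 3.10 ± 0.55, 1.61 ± 0.52 and 4.58 ± 0.54 log2 units, and it was also higher in GF than in SPF WT mice (2.84 ± 0.53, adjusted p = 0.00713), where *Ctss* differed by 0.089 ± 0.082 (adjusted p = 0.649). Of the 8 border-associated macrophage markers, 5 rose in SPF, 0 in GF and 8 in ABX 5xFAD against WT mice and 5 in GF against SPF WT mice (4.57%, 15.6%, 14.4% and 1.62% of all tested genes called), and their part in the level of *Cd74* was not tested.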

How the data were processed

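The deposited table holds whole-number counts of reads per gene, which the authors obtained from RNA of sorted microglia with STAR 2.7.2 on GRCm38 and featureCounts 1.6.2 with GENCODE M21 (tools per the submitters' processing notes, build and annotation per the study's methods). Its coordinates equalled M21 for 7 of the 10 genes. The 92 spike-in rows (at most 12 reads) were left out. Groups came from the sample labels. Counts were scaled by TMM and filtered with filterByExpr (minimum count 10, total 15), leaving 15298 genes. edgeR 4.0.16 in R 4.3.3 fitted 1 quasi-likelihood model to 6 groups, with 12 contrasts and Benjamini-Hochberg adjustment over all tested genes at 0.05. The standard error is the log2 fold change divided by the square root of F. Alternatives were DESeq2 1.42.0, limma 3.58.1 voomWithQualityWeights (the method of the study), other scalings, filters, offsets and sets of mice. Scripts were tested on simulated counts. All 10 genes, and gene lists fixed with them, were named, together with the 2 most alike genes of each but *Ctse*. These members and lists were chosen with earlier results of these data known. Each library was 1 mouse, and no replicate pair agreed within sampling noise (lowest chi-square per degree of freedom 6.52). At 14441610 reads or more per library, counting error bears mainly on *Ctse*.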

Additional observations from a re-analysis of the deposited data

Results flagged for a closer look

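In 8 of 50 sets of 1 gene in 1 group of 4 to 6 mice, a mouse lay far from the rest by Dixon's criterion, which chance alone meets in about 1 of 20 sets. Sets of different genes share the same mice, so they are not independent and the 8 are not separate events. GF 5xFAD mouse FAD_GF_201, the one with conflicting labels, accounted for 3 of these, and its summed microglial markers were also apart, at 61566 against 50728 to 52181 CPM in the other GF 5xFAD mice. Its *Ctsa* level was 3129.5 CPM against 3780.3 to 3973 CPM in the other GF 5xFAD mice, its *Ctsl* level 2431 CPM against 3076 to 3206 CPM, and its *Ctsz* level 4107 CPM against 5518 to 5746 CPM. All 3 values were above those of every WT mouse. Among WT mice, *Ctsb* was high in mouse WT_GF_230 at 4029 CPM (others 3027 to 3121 CPM), *Ctss* was low in mouse WT_GF_199 at 6955 CPM (others 8140.5 to 8345 CPM), and *Ctsd* was low in mouse WT_ABX_911 at 8525 CPM (others 9402 to 9520.2 CPM). Among ABX 5xFAD mice, *Ctsb* was high in mouse FAD_ABX_1460 at 10359 CPM (others 6668 to 7474 CPM) and *Ctsc* in mouse FAD_ABX_1455 at 1222 CPM (others 1030.1 to 1089 CPM). What set these mice apart was not tested.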

How the results depend on the processing

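Of 39 differences that passed the threshold, none changed direction in 1478 recomputed values, and 8 missed the threshold in 42 of them. Of 81 that did not pass, 16 passed in 38 of 3070 values and 28 changed sign in 85. The counts of cathepsins that passed were within 1.5 times the reported ones under every alternative for 5xFAD against WT in each condition, for GF against SPF 5xFAD and for ABX against SPF mice. For GF against ABX 5xFAD mice, 5 in place of 8 passed when only these groups were fitted or at a threshold of 0.01. For GF against SPF WT mice, 2 in place of 0 passed with voomWithQualityWeights or only these groups. For GF against ABX WT mice, 1 in place of 2 passed with RLE factors, library size alone, a minimum of 10 counts per library, all genes kept whatever their counts, or the 0.01 threshold, 0 passed with GC content offsets, and 1 to 3 passed when each mouse was left out in turn. For the interaction of GF and SPF, voomWithQualityWeights passed 4 in place of 0, and for that of GF and ABX, DESeq2 and GC content offsets passed 1 in place of 0, and leaving out single mice 0 to 2. Signs turned only where nothing passed. The *Ctsc* difference between genotypes in SPF mice was -0.0015 with library size alone, -0.0024 with voomWithQualityWeights and -0.011 to 0.092 with single mice left out, and that of *Ctsf* was -0.024, -0.017 and -0.033 to 0.070. *Ctsc* was at -0.031 in GF against ABX 5xFAD mice with library size alone. In the interaction of GF and ABX, GC content offsets gave -0.0035 for *Ctsc* and 0.046 for *Ctsf*, and *Ctsa* ranged from -0.015 to 0.11 with single mice left out. *Ctse* ranged from -0.11 to 0.51 in that of GF and SPF. Library size alone moved the median of all genes by -0.12 between genotypes in GF mice. With at least 10 counts in every library *Ctse* was not tested. Apart from these settings' own construction, the cause of the changes was not tested. No paired analysis was possible because the groups share no replicate numbers. The 3 SPF 5xFAD mice and the low reads of *Ctse* in WT mice limit the precision.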
